A study of Mus musculus with 9 samples.

Results

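The epidermal growth factor receptor (EGFR) system was followed in mouse intestinal organoids through 10 genes chosen by symbol out of 54838 gene identifiers. They are the receptors *Egfr*, *Erbb2* and *Erbb3*, the ligands *Ereg*, *Areg*, *Hbegf* and *Tgfa*, and the feedback genes *Errfi1*, *Dusp6* and *Spry2*. All 10 were found, and all 10 passed the filter on low values, 1 FPKM or more in at least 2 libraries. Organoids are epithelial cultures grown from intestinal crypts, here from C57BL/6 mice with the alleles *Vil-CreERT2* and *Mettl3* fl/fl, of which the small intestine was used. In these mice the villin promoter drives a Cre recombinase in the intestinal epithelium that acts on floxed *Mettl3*, a gene for the RNA m6A methyltransferase, once 4-hydroxytamoxifen (4-OHT) is given. Every culture carried the Cre and the floxed alleles and grew in medium with Noggin, R-spondin1 and 50 ng/mL EGF, the founding ligand of the receptor studied here. Ethanol (EtOH) or 0.5 µM 4-OHT was given for 2 days, with the solvent DMSO or necrostatin-1 (Nec-1), an inhibitor of the kinase RIPK1, for 5 days. The Nec-1 concentration is given as 5 or 10 µM in different places of the sources. RNA-seq was made from EtOH DMSO (2 libraries), EtOH Nec-1 (2 libraries), 4-OHT DMSO (2 libraries) and 4-OHT Nec-1 (1 library). No culture without Cre received 4-OHT, so effects of the drug and of the deletion cannot be told apart. Biological replicates are mentioned for the study's experiments in general, but not for these libraries, and whether replicates came from separate cultures is not stated, so p-values measure the spread between these libraries, which may be technical.

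EGFR and its relatives ERBB2 and ERBB3 are receptor tyrosine kinases at the cell surface. Ligands of the EGF family are made as membrane-bound precursors, are shed by metalloproteases, and bind EGFR, which then pairs with itself or with a relative and drives the Ras-ERK and PI3K-AKT pathways. ERBB2 binds no known ligand and acts as a partner, and ERBB3 has little kinase activity of its own and couples to PI3K. ERK signalling switches on inhibitors of the same pathway, which limit the signal, and in the intestine EGF is a niche factor made by Paneth cells and needed for crypt cells to proliferate.

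Expression is given in FPKM, the fragments mapped to a gene after correction for transcript length and for the total of mapped fragments, so that levels can be compared between genes. FPKM summed to 450207 to 498712 per library, 11559 to 12038 genes per library reached 1 FPKM, and the spacing of the lowest values gave relative depths of 0.853 to 1.03. Fragment counts were not used here, so the depth behind single values is unknown. Between groups of 2 libraries, limma was run on log2(FPKM + 1) over 12702 genes, with a Benjamini-Hochberg adjusted p threshold of 0.05. This scale understates the change of genes near 1 FPKM. *Mettl3*, the targeted gene, was at 2.70 and 2.71 FPKM with EtOH DMSO, 2.41 and 2.47 with EtOH Nec-1, 3.72 and 4.14 with 4-OHT DMSO and 3.36 with 4-OHT Nec-1. It was thus not lower in the libraries labelled 4-OHT. Between the DMSO groups it was higher in 4-OHT DMSO by 0.41 on the log2 scale (limma adjusted p = 0.0231), and by 0.25 with every library centred on its median (limma adjusted p = 0.0796) and 0.28 with upper quartile scaling (limma adjusted p = 0.0640). These values cover the whole gene and not the excised part, so every direction between EtOH and 4-OHT organoids rests on the labels. The libraries were epithelial. All 7 epithelial markers were expressed, while 5 of 6 fibroblast, 3 of 3 endothelial and 3 of 5 immune markers stayed under 0.2 FPKM in every library.

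Of the 10 genes, 8 rose in the libraries labelled 4-OHT DMSO compared with EtOH DMSO and none fell (limma adjusted p under 0.05). Over all genes tested, 41.2% were called in this comparison, 24.5% as higher and 16.7% as lower. The median log2 difference of the 10 genes was 0.94, beside 0.077 for all genes. With every library centred on its median, all genes had a median of -0.080 and the 10 genes one of 0.78. The split of all calls turned from 3117 higher and 2120 lower to 2213 higher and 3187 lower under that centring, and to 2232 higher and 2976 lower under upper quartile scaling. All 8 genes were called higher in both settings.

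Among the ligands, amphiregulin and epiregulin changed most. *Areg* (ENSMUSG00000029378) was at 98.3 and 107 FPKM with EtOH DMSO, 115 and 112 with EtOH Nec-1, 533 and 621 with 4-OHT DMSO and 508 with 4-OHT Nec-1. Every library labelled 4-OHT lay far above every library labelled EtOH. The share of all genes that separate in this way was not counted, for this gene or for those below. Between 4-OHT DMSO and EtOH DMSO its mean FPKM differed 5.61-fold, a log2 difference of 2.47 (SE 0.11, limma adjusted p = 0.000302). Amphiregulin is a ligand of EGFR that is released from the membrane by the protease ADAM17.

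*Ereg* (ENSMUSG00000029377), for epiregulin, a ligand that also binds ERBB4, was at 3.48 and 4.95 FPKM with EtOH DMSO, 5.35 and 5.42 with EtOH Nec-1, 19.7 and 21.7 with 4-OHT DMSO and 25.0 with 4-OHT Nec-1. The EtOH and 4-OHT libraries again did not overlap. Its mean FPKM was 4.90-fold higher in 4-OHT DMSO than in EtOH DMSO, a log2 difference of 2.07 (SE 0.15, limma adjusted p = 0.00075).

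*Hbegf* (ENSMUSG00000024486) encodes heparin-binding EGF-like growth factor. Its FPKM was 8.73 and 10.7 with EtOH DMSO, 8.82 and 7.45 with EtOH Nec-1, 21.4 and 23.7 with 4-OHT DMSO and 15.0 with 4-OHT Nec-1. The 4-OHT Nec-1 library lay between the EtOH libraries and those labelled 4-OHT DMSO. *Hbegf* rose by 1.14 on the log2 scale between EtOH DMSO and 4-OHT DMSO (SE 0.13, limma adjusted p = 0.00263). *Tgfa* (ENSMUSG00000029999; chr6:86195038-86275744, GRCm38.p6), for transforming growth factor alpha, was the ligand with no call. It was at 4.14 and 5.48 FPKM with EtOH DMSO, 4.11 and 4.78 with EtOH Nec-1, 4.90 and 4.99 with 4-OHT DMSO and 5.36 with 4-OHT Nec-1. Both 4-OHT DMSO values lay between the EtOH DMSO values, and the log2 difference of 0.042 (95% interval -0.31 to 0.40, limma adjusted p = 0.835) changed sign with centring, to -0.11, and with upper quartile scaling, to -0.095.

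**Figure D1:**
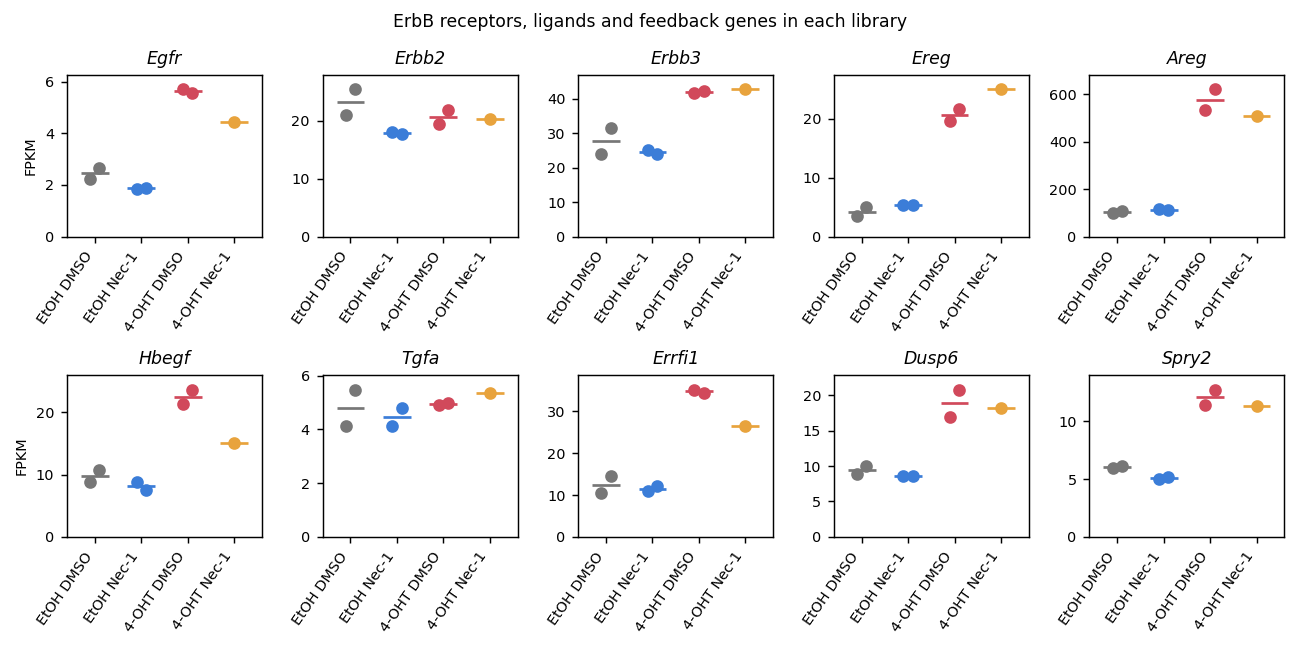
FPKM of the 10 genes, 1 panel per gene with its own axis from 0, in the 4 groups of libraries; each point is 1 library and each line a group mean (1 library for 4-OHT Nec-1). *Areg* is at 98.3 to 115 FPKM in the EtOH libraries and at 508 to 621 in the 4-OHT libraries, while *Erbb2* and *Tgfa* overlap between EtOH DMSO and 4-OHT DMSO.

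*Areg* and *Ereg* are neighbours on chromosome 5 (GRCm38.p6, RefSeq), in a row of EGF-family genes that runs from *Epgn* (chr5:91027517-91035212) over *Ereg* (chr5:91074617-91093649) and *Areg* (chr5:91139599-91148432) to *Btc* (chr5:91357261-91402994). *Btc*, for betacellulin, and *Epgn*, for epigen, are further EGFR ligands, described here after their values were seen. *Btc* was at 9.76 and 10.1 FPKM with EtOH DMSO, 9.77 and 10.5 with EtOH Nec-1, 19.0 and 22.7 with 4-OHT DMSO and 22.6 with 4-OHT Nec-1, a log2 difference of 0.99 between the DMSO groups (SE 0.11, limma adjusted p = 0.00214). *Epgn* was too low to be tested, at 0 and 0.0848 FPKM with EtOH DMSO, 0.0979 and 0.0919 with EtOH Nec-1, 0.430 and 0.321 with 4-OHT DMSO and 0.269 with 4-OHT Nec-1. Each of these 4 neighbours was thus higher in each library labelled 4-OHT than in any EtOH library. As for *Areg* above, the share of all genes that separate in this way was not counted, and *Epgn* stayed under 1 FPKM throughout. *Egf*, the ligand supplied in the medium, was at or below 0.0904 FPKM in every library and was not tested.

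The summed FPKM of the 7 ligand genes *Areg*, *Ereg*, *Hbegf*, *Tgfa*, *Btc*, *Epgn* and *Egf* was 124 and 139 with EtOH DMSO, 143 and 140 with EtOH Nec-1, 598 and 694 with 4-OHT DMSO and 577 with 4-OHT Nec-1. *Areg* alone made up 79.0% and 77.4% of this sum with EtOH DMSO, 80.3% and 79.7% with EtOH Nec-1, 89.1% and 89.4% with 4-OHT DMSO and 88.1% with 4-OHT Nec-1. Amphiregulin was therefore the main EGFR ligand transcript in all 7 libraries. Among the 12702 tested genes, *Areg* ranked between 514 and 591 by FPKM in the EtOH libraries and between 107 and 114 in the libraries labelled 4-OHT.

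**Figure D2:**
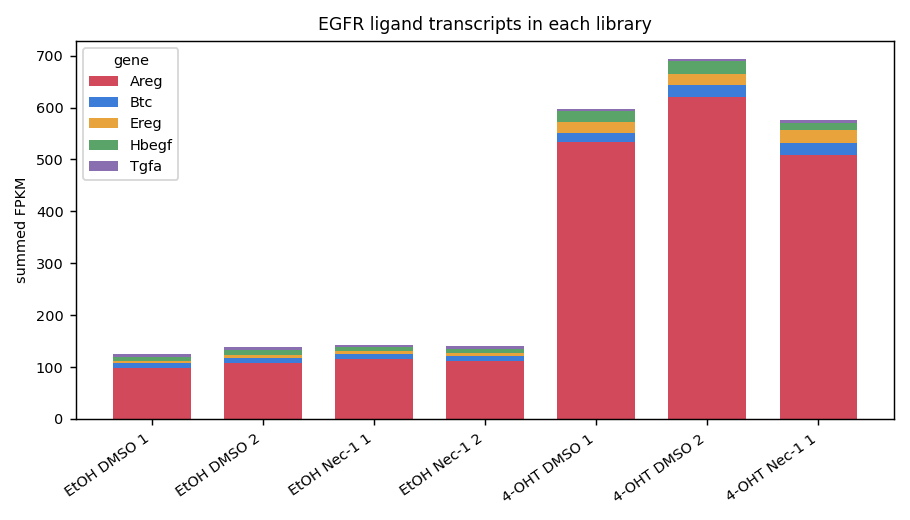
Stacked bars of FPKM for *Areg*, *Btc*, *Ereg*, *Hbegf* and *Tgfa* in each of the 7 libraries; *Epgn* and *Egf*, under 1 FPKM throughout, are not drawn. *Areg* fills most of each bar, and the 7-gene sum is 124 to 143 FPKM in the EtOH libraries and 577 to 694 in the 4-OHT libraries.

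The 250 bases before the annotated start were available for 7 of the 10 genes, with 2 starts for *Errfi1*. Those with a motif match, before *Areg* and *Errfi1*, are shown. *Egfr*, *Dusp6* and *Spry2*, which also rose, had no match, and neither had *Erbb2* and *Tgfa*, which were not called. Shares of promoters given here are over those searched, which did not cover every chromosome. The full cyclic AMP response element (CRE), TGACGTCA, which reads the same on both strands, was found before *Areg* and before the second start of *Errfi1*, and in 508 of 32851 mouse promoters of this length (1.55%). In *Areg* it lies 61 to 54 bases before the start, in a window at chr5:91139349-91139598 (GRCm38.p6, RefSeq, + strand), with the CRE in capitals:
Areg: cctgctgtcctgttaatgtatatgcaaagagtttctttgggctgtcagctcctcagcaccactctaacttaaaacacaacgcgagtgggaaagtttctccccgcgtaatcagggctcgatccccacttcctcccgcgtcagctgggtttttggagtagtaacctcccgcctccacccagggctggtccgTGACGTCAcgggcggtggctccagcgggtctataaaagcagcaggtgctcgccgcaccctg
In *Errfi1* it lies 51 to 44 bases before the second start, and the 30 bases around it at chr4:150855008-150855037 (+ strand) are:
Errfi1: gctgcgggcgtTGACGTCAcgttgtcgctc
The other motifs searched, on both strands, matched in none of the 8 windows. They are the AP-1 site TGANTCA, held by 6.75% of the promoters searched, the ETS site CCGGAAGT, held by 2.88%, and the CArG box, held by 1.47%. A match describes the letters of the window only.

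Of the receptors, *Egfr* and *Erbb3* rose and *Erbb2* was not called. *Egfr* (ENSMUSG00000020122; chr11:16752203-16913907) was at 2.24 and 2.64 FPKM with EtOH DMSO, 1.83 and 1.89 with EtOH Nec-1, 5.70 and 5.57 with 4-OHT DMSO and 4.44 with 4-OHT Nec-1. The 3 libraries labelled 4-OHT were all above the 4 EtOH libraries. The log2 difference between 4-OHT DMSO and EtOH DMSO was 0.95 (SE 0.10, limma adjusted p = 0.00214), a 2.31-fold difference in mean FPKM.

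*Erbb3* (ENSMUSG00000018166; chr10:128567523-128589635) was at 24.1 and 31.3 FPKM with EtOH DMSO, 25.2 and 24.0 with EtOH Nec-1, 41.6 and 42.1 with 4-OHT DMSO and 42.7 with 4-OHT Nec-1. It was the most abundant of the receptor transcripts in each of the 7 libraries. Its log2 difference of 0.59 (SE 0.13, limma adjusted p = 0.0189) was the smallest of the 8 calls and was lost without a filter on low values (adjusted p = 0.0612). *Erbb2* (ENSMUSG00000062312; chr11:98412484-98437716) was at 21.1 and 25.5 FPKM with EtOH DMSO, 18.1 and 17.8 with EtOH Nec-1, 19.5 and 21.9 with 4-OHT DMSO and 20.3 with 4-OHT Nec-1. Its DMSO groups overlapped, with a log2 difference of -0.16 (95% interval -0.45 to 0.13, limma adjusted p = 0.311). *Erbb4*, the remaining receptor of the family, was listed at 0 in every library.

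All 3 feedback genes rose. *Errfi1* (ENSMUSG00000028967; chr4:150853796-150868889) encodes MIG6, which binds the kinase domain of EGFR and blocks it. It was at 10.5 and 14.4 FPKM with EtOH DMSO, 10.9 and 12.2 with EtOH Nec-1, 35.2 and 34.4 with 4-OHT DMSO and 26.4 with 4-OHT Nec-1. These values separate the 4-OHT libraries from all EtOH libraries. The log2 difference between 4-OHT DMSO and EtOH DMSO was 1.43 (SE 0.15, limma adjusted p = 0.00207), a 2.79-fold difference in mean FPKM.

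*Dusp6* (ENSMUSG00000019960; chr10:99263231-99267489) encodes a phosphatase that inactivates ERK in the cytoplasm. It was at 8.83 and 9.98 FPKM with EtOH DMSO, 8.65 and 8.56 with EtOH Nec-1, 17.0 and 20.8 with 4-OHT DMSO and 18.2 with 4-OHT Nec-1, and it rose by 0.93 on the log2 scale between EtOH DMSO and 4-OHT DMSO (SE 0.12, limma adjusted p = 0.0035). *Spry2* (ENSMUSG00000022114; chr14:105891947-105896819) encodes Sprouty2, an inhibitor of Ras-ERK signalling downstream of receptor tyrosine kinases. Its FPKM was 5.97 and 6.10 with EtOH DMSO, 4.97 and 5.15 with EtOH Nec-1, 11.4 and 12.7 with 4-OHT DMSO and 11.3 with 4-OHT Nec-1, with a log2 difference of 0.89 between the DMSO groups (SE 0.091, limma adjusted p = 0.00175). Both genes were close to 2-fold higher in 4-OHT DMSO than in EtOH DMSO, with ratios of mean FPKM of 2.01 for *Dusp6* and 2.00 for *Spry2*. *Egfr*, *Ereg*, *Errfi1* and *Dusp6* each overlap an annotated long noncoding RNA gene, *Erbb2* overlaps *Mien1* and *Erbb3* overlaps *Mir6917*. The counting is not stated to use strand, so reads of these overlaps cannot be told apart.

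The order of the transcripts by FPKM differed between the DMSO groups. In EtOH DMSO it ran *Areg*, *Erbb3*, *Erbb2*, *Errfi1*, *Hbegf*, *Dusp6*, *Spry2*, *Tgfa*, *Ereg*, *Egfr*. Neighbours with overlapping libraries in this order were *Erbb3* and *Erbb2*, *Errfi1* and *Hbegf*, *Hbegf* and *Dusp6*, and *Tgfa* and *Ereg*. In 4-OHT DMSO it ran *Areg*, *Erbb3*, *Errfi1*, *Hbegf*, *Erbb2*, *Ereg*, *Dusp6*, *Spry2*, *Egfr*, *Tgfa*, with overlaps between *Hbegf* and *Erbb2*, *Erbb2* and *Ereg*, and *Ereg* and *Dusp6*. *Egfr* was the lowest of the 10 in EtOH DMSO, and its transcript was also below those of *Erbb2* and *Erbb3* in all 7 libraries.

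**Figure D3:**
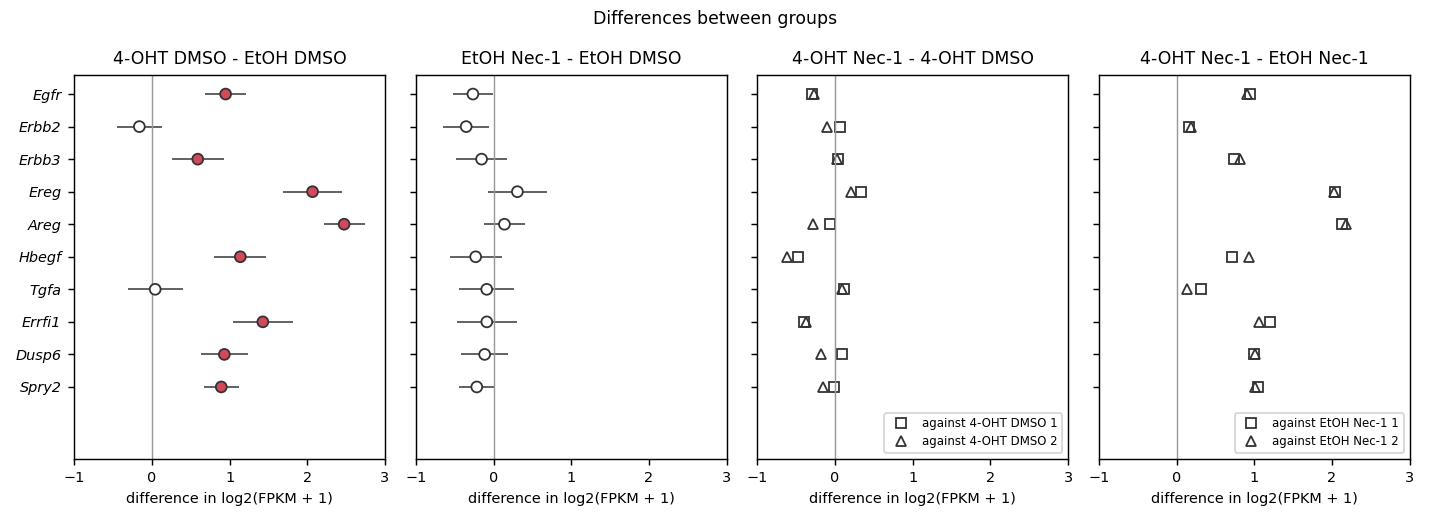
Difference in log2(FPKM + 1) of the 10 genes in 4 comparisons. In the first 2 panels points are limma estimates with 95% intervals, filled red where the adjusted p is under 0.05; in the others each symbol is the 4-OHT Nec-1 library against 1 library, with no test. The 8 red points of the first panel run from 0.59 for *Erbb3* to 2.47 for *Areg*, and no point is red in the Nec-1 panel.

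The genes around this set were described with 71 further genes of the pathway, of which 70 were in the files and 60 passed the filter on low values. Of the 60, limma called 22 higher and 5 lower in 4-OHT DMSO, beside 24.5% and 16.7% of all genes, and 33 were not called. Their median log2 difference was 0.24. The split was 14 higher and 8 lower with median centring, beside 2213 higher and 3187 lower of all 12702 genes. With upper quartile scaling it was 13 higher and 6 lower, beside 2232 higher and 2976 lower of all 12702 genes.

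Inhibitors of the pathway other than those above, with receptor turnover genes, made up 16 tested genes. Of these, 7 rose and none fell, beside 24.5% and 16.7% of all genes. The median log2 difference of the 16 genes was 0.26, beside 0.077 for all genes. With every library centred on its median it was 0.10, beside -0.080 for all genes. The 7 were *Spry1*, *Spry4*, *Spred1*, *Spred2*, *Dusp5*, *Dusp7* and *Dusp9*. *Dusp5*, for a nuclear ERK phosphatase, was at 7.32 and 8.49 FPKM with EtOH DMSO, 6.92 and 7.02 with EtOH Nec-1, 26.1 and 28.9 with 4-OHT DMSO and 27.2 with 4-OHT Nec-1, with a log2 difference of 1.68 (SE 0.10, limma adjusted p = 0.000498). The 7 are Sprouty and Spred inhibitors of Ras-ERK signalling and phosphatases of MAP kinases. The other 9 genes of the list, *Cbl*, *Lrig1*, *Lrig2*, *Lrig3*, *Rnf41*, *Usp8*, *Dusp4*, *Rasa1* and *Nf1*, were not called.

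Genes that ERK signalling is known to induce made up 12 tested genes. Of these, 6 rose (*Egr1*, *Fos*, *Fosl1*, *Ier3*, *Phlda1* and *Plaur*) and none fell, beside 24.5% and 16.7% of all genes. The median log2 difference of the 12 genes was 0.70, and 0.55 with every library centred on its median. *Plaur*, for the urokinase receptor, was at 9.41 and 9.38 FPKM with EtOH DMSO, 10.6 and 9.92 with EtOH Nec-1, 65.9 and 67.2 with 4-OHT DMSO and 61.1 with 4-OHT Nec-1, a log2 difference of 2.70 (SE 0.076, limma adjusted p = 0.000256). *Fos*, an immediate early transcription factor, was at 6.80 and 7.83 FPKM with EtOH DMSO, 4.56 and 5.48 with EtOH Nec-1, 23.9 and 28.1 with 4-OHT DMSO and 17.3 with 4-OHT Nec-1, a log2 difference of 1.70 (SE 0.13, limma adjusted p = 0.000893). Both genes separated the 4-OHT libraries from the EtOH libraries. *Egr1*, another immediate early factor, was at 6.93 and 7.74 FPKM with EtOH DMSO, 4.79 and 4.20 with EtOH Nec-1, 19.9 and 22.6 with 4-OHT DMSO and 16.0 with 4-OHT Nec-1, a log2 difference of 1.42 (SE 0.11, limma adjusted p = 0.000912). *Phlda1* was at 29.1 and 32.9 FPKM with EtOH DMSO, 27.1 and 27.8 with EtOH Nec-1, 78.8 and 89.1 with 4-OHT DMSO and 67.5 with 4-OHT Nec-1, a log2 difference of 1.41 (SE 0.10, limma adjusted p = 0.00072). The DMSO groups did not overlap for any of these 4 genes. All 4 were named for being among the 5 largest rises called, a choice that favours groups without overlap. Other genes of the list were not called, with log2 differences of 0.028 for *Ccnd1* (limma adjusted p = 0.877) and 0.22 for *Myc* (0.267), and *Emp1* at 28.6 and 6.89 FPKM in EtOH DMSO and 38.5 and 48.0 in 4-OHT DMSO. The last 3 were picked out after their values were seen.

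Of 17 tested genes of the Ras-ERK cascade, 4 rose, among them *Ptpn11* and *Hras*, and 2 fell, shares close to the 24.5% and 16.7% of all genes. *Mapk3*, for ERK1, went from 128 and 117 FPKM in EtOH DMSO to 77.7 and 84.5 in 4-OHT DMSO and was at 88.2 in 4-OHT Nec-1 (log2 difference -0.59, SE 0.093, limma adjusted p = 0.00643).

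Among 8 genes of the PI3K-AKT arm, 3 rose and 2 fell, beside 24.5% and 16.7% of all genes. Their median log2 difference was 0.13, and -0.028 with every library centred on its median. The rises included the catalytic subunits *Pik3ca* (limma adjusted p = 0.0445) and *Pik3cb* (limma adjusted p = 0.0352), picked out after their values were seen. The settings that gave these rises were not counted. Those that fell were the regulatory subunits *Pik3r1* (log2 difference -0.41, limma adjusted p = 0.0409) and *Pik3r2* (-0.44, limma adjusted p = 0.0246), calls that 8 and 10 of 16 settings gave. Of 5 genes for ligand shedding, 1 rose, the protease gene *Adam17*, beside 24.5% of all genes. *Adam10*, *Rhbdf1*, *Rhbdf2* and *Frmd8* were not called. *Nrg4*, for a neuregulin that binds ERBB4, was at 1.03 and 1.23 FPKM with EtOH DMSO, 1.22 and 1.12 with EtOH Nec-1, 0.114 and 0.153 with 4-OHT DMSO and 0.139 with 4-OHT Nec-1, and it fell by 0.91 on the log2(FPKM + 1) scale (SE 0.13, limma adjusted p = 0.00466). With a pseudocount of 0.1 the log2 difference was -2.39, and the ratio of its mean FPKM was 0.118.

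**Figure D4:**
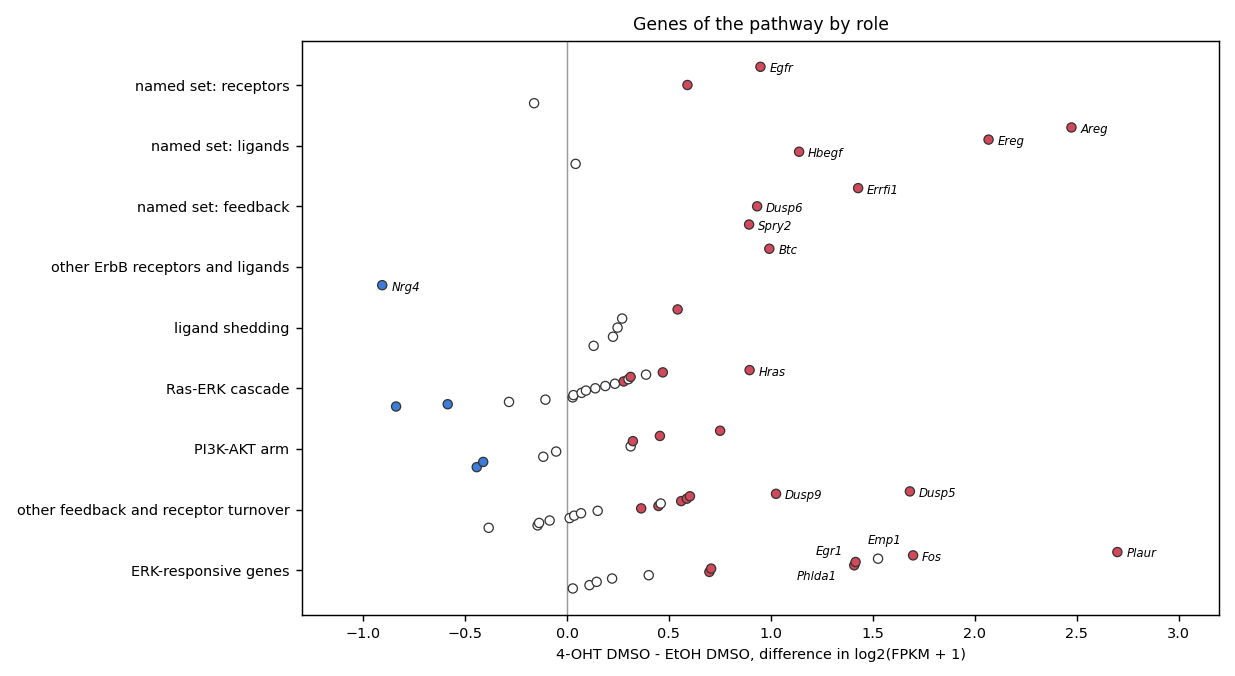
Difference in log2(FPKM + 1) between 4-OHT DMSO and EtOH DMSO for the 10 genes (named set) and 60 further tested genes, in rows by role; each point is 1 gene, red where limma called it higher, blue where lower and white where not called. Feedback and ERK-responsive genes hold no blue point, and *Plaur* lies furthest right at 2.70.

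Markers of cell types moved with the same comparison. All 7 Paneth cell markers rose, with a summed level of 8388 to 9259 FPKM with EtOH DMSO, 9657 to 9868 with EtOH Nec-1, 22716 to 22746 with 4-OHT DMSO and 16890 with 4-OHT Nec-1. All 5 goblet markers (1256 to 1350 FPKM summed in EtOH DMSO, 1864 to 2063 in 4-OHT DMSO) and all 4 enteroendocrine markers (157 to 168 FPKM, 308 to 368) also rose. Of 5 stem cell markers 3 fell, from a sum of 46.1 to 47.8 FPKM in EtOH DMSO to 21.3 to 29.1 in 4-OHT DMSO, and it was 14.0 in 4-OHT Nec-1. Of 5 enterocyte markers, 4 were tested, 1 rose and 2 fell. The immune marker sum was 2.74 to 3.29 FPKM in EtOH DMSO and 6.04 to 8.69 in 4-OHT DMSO, with 1 of 2 tested genes called higher. The tuft and endothelial markers were too low to be tested, and the 1 fibroblast marker tested was not called. The part of these shifts in the levels of the receptors, ligands and feedback genes was not tested, and in bulk libraries fewer cells of a type and less RNA per cell cannot be told apart.

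With Nec-1 in EtOH organoids, none of the 10 genes was called by limma, beside 0.22% of all 12702 genes. At an unadjusted p under 0.05 there were 2 of 10, *Egfr* and *Erbb2*, both lower, and 13.3% of all genes. *Egfr* differed by -0.27 on the log2 scale (95% interval -0.53 to -0.0051, limma adjusted p = 0.372) and *Erbb2* by -0.35 (95% interval -0.64 to -0.060, limma adjusted p = 0.324). The values given above show EtOH Nec-1 below EtOH DMSO without overlap for *Egfr*, *Erbb2*, *Dusp6* and *Spry2*, 4 of 10, beside 39.1% of all genes. For *Ereg* and *Areg* they show it above without overlap, 2 of 10, beside 10.5%. *Ereg* differed by 0.31 (95% interval -0.070 to 0.68) and *Areg* by 0.14 (95% interval -0.12 to 0.40). The median of the 10 genes was -0.13, and that of all genes was -0.094. In the same comparison the stem cell marker sum was 34.8 and 32.6 FPKM with Nec-1 against 47.8 and 46.1 without, and the enterocyte sum 810 and 811 against 1025 and 993, although limma called no gene of either list, and their part was not tested. Of the 60 pathway genes limma called none, and 8 had an unadjusted p under 0.05, beside the 13.3% of all genes. All 8 were lower, among them *Egr1* and *Fos*, for which every EtOH Nec-1 value lay below both EtOH DMSO values. Of the 60, 26 lay below without overlap, beside 39.1% of all genes, and 2 above, beside 10.5%. The median of the 60 was -0.11, and -0.015 with every library centred on its median, where that of all genes was 0.0048.

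With Nec-1 in organoids labelled 4-OHT, 1 library was set against 2 and no test was run. The 4-OHT Nec-1 library was lower than each 4-OHT DMSO library by 1 log2 unit or more for 1.21% of 12036 genes, and higher than each by as much for 0.764%, with none of the 10 genes among them. *Hbegf* differed most, by -0.48 and -0.62 on the log2 scale against the 4-OHT DMSO libraries, and its FPKM with Nec-1 was 0.667 times their mean. *Errfi1* differed by -0.40 and -0.37, and *Egfr* by -0.30 and -0.27. *Ereg* was higher, by 0.33 and 0.20. In FPKM, 5 genes lay below each 4-OHT DMSO library (*Egfr*, *Areg*, *Hbegf*, *Errfi1* and *Spry2*), beside 50.6% of all genes, and 3 above each (*Erbb3*, *Ereg* and *Tgfa*), beside 24.5%. Centring was added once the values were known and moved all genes upward (their median from -0.089 to 0.025). With it, 3 of the 10 genes lay below each (*Egfr*, *Hbegf* and *Errfi1*), beside 32.4% of all genes. Another 4 lay above each, beside 41.3% of all genes. Of the ERK-responsive genes, 10 of 12 lay below each 4-OHT DMSO library, with a median log2 difference of -0.31 beside -0.089 for all genes, and 10 of 12 did so after centring. Of the 58 pathway genes measured, 33 lay below each (56.9%) and 8 above each (13.8%), beside 50.6% and 24.5% of all genes. After centring 22 lay below and 22 above (37.9% each), beside 32.4% and 41.3% of all genes. The single 4-OHT Nec-1 library also had lower Paneth and stem cell marker sums than 4-OHT DMSO, as given above. All 7 epithelial markers (3631 FPKM summed, against 4078 and 4708) and 4 of 5 goblet markers (1666 FPKM, against 1864 and 2063) lay below each 4-OHT DMSO library, the enterocyte sum was higher (995 FPKM, against 750 and 833), and the enteroendocrine sum lay between (355 FPKM). The part of these markers in the differences was not tested.

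Among the libraries that received Nec-1, a comparison added after the data were seen, all 10 genes were higher in the 4-OHT library than in both EtOH libraries, beside 49.9% of 11746 genes. *Ereg*, *Areg*, *Errfi1* and *Spry2* were at least 1 log2 unit above each, beside 4.24%. With centring or upper quartile scaling 2 genes passed this fold, and with a threshold of 1.5-fold 8 did. The shares of all genes that passed in these other settings were not counted, so these counts have no background beside them. The log2 differences were 2.16 for *Areg*, 2.03 for *Ereg*, 1.13 for *Errfi1*, 1.03 for *Spry2*, 1.00 for *Dusp6*, 0.93 for *Egfr*, 0.82 for *Hbegf* and 0.77 for *Erbb3*. *Tgfa* (0.23) and *Erbb2* (0.17) differed least. The median was 0.96, and that of all genes was 0.067. The 8 genes called between the DMSO groups were thus also the 8 with the larger differences between the Nec-1 groups, where no test was run.

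By its profile over the 7 libraries, *Egfr* was most like *Eif1ad*, *Esyt1*, *Sox4*, *Mrpl44* and *Ky*. Likeness was the root mean square difference in log2(FPKM + 1) after each gene was centred on its own mean, which was 0.0303 for *Eif1ad*, 0.0483 for *Esyt1*, 0.0484 for *Sox4*, 0.0502 for *Mrpl44* and 0.0529 for *Ky*. *Sox4*, a transcription factor gene, was at 11.1 and 12.8 FPKM with EtOH DMSO, 9.72 and 10.1 with EtOH Nec-1, 24.9 and 22.7 with 4-OHT DMSO and 18.0 with 4-OHT Nec-1. Like *Egfr* it was lowest in EtOH Nec-1 and highest in 4-OHT DMSO, which follows from its choice by profile.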

How the data were processed

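Bulk RNA-seq of organoids was used from 7 libraries in 4 groups, named by their labels. Libraries were made with a NEBNext Ultra kit. Per the labels, HISAT2 2.1.0 and StringTie 1.3.3b were among the tools and mm10 (GRCm38) was the build; the annotation is not given in the sources used here. The authors deposited FPKM per Ensembl gene and library. A table repeated 2 columns of others, with differences of at most 5e-06 FPKM. CUT&Tag samples (2) were not used here.

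Symbols were matched for 54723 of 54838 identifiers. limma 3.58.1 in R 4.3.3, with a mean-variance trend, was fitted to log2(FPKM + 1) over 12702 genes, with 4 group means and 3 residual degrees of freedom. It was also run on simulated data with few changed genes and independent noise per library. That setting differs from these data, where 41.2% of genes were called between the DMSO groups, so it does not measure how reliable these calls are. The 4-OHT Nec-1 library was compared without a test, over genes whose mean in the libraries compared reached 1 FPKM. Tables and plots were made with Python 3.11.15, pandas 2.3.3 and matplotlib 3.10.9. Positions and promoters are from RefSeq (GRCm38.p6).

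The 10 genes, the 71 pathway genes and the markers were chosen with earlier results of these data known. Named are the 10 genes, the 5 largest rises and 5 largest falls called among the pathway genes, *Egf* and the 5 genes most like *Egfr*; others are named as chosen after their values were seen, or only listed as called or not. Alternatives were limma without the trend, other scalings, filters and pseudocounts, an added fold threshold, a replicate block and each library left out in turn. The position of *Hbegf* and the values of some pathway genes that this rule names are not reported here.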

Additional observations from a re-analysis of the deposited data

Results flagged for a closer look

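Each EtOH library with Nec-1 held more *Areg* than each without (mean log2 difference 0.14) and the 4-OHT Nec-1 library held less than both libraries labelled 4-OHT DMSO (-0.18). *Plaur* had the same pattern, with 0.11 in EtOH organoids and -0.12 in organoids labelled 4-OHT. *Mapk3* had the opposite one, with -0.18 in EtOH organoids and 0.12 in organoids labelled 4-OHT. In these FPKM every library of one setting moved one way and every library of the other the opposite way, and the difference between the settings was not tested. The pattern did not hold under upper quartile scaling for any of the 3 genes, and with centring it held for *Plaur* alone, at -0.011 and -0.0019 in organoids labelled 4-OHT (scalings added after the values were seen). With centring, *Areg* in organoids labelled 4-OHT ran from -0.17 to 0.037 over the pairs of libraries, and *Mapk3* in EtOH organoids from -0.23 to 0.069.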

How the results depend on the processing

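The limma call of 8 higher genes among the 10 was kept in count under centring, upper quartile scaling, 1 FPKM in every library, a pseudocount of 0.1, no trend, only the 4 libraries compared and each library left out in turn. Without a filter on low values it was 7, and with an added log2 difference of at least 1 it was 4. Pathway calls between the DMSO groups, 27 in the fit reported, fell to 16 without a filter, 16 with only the 4 libraries and 6 with the added fold. They ranged from 16 to 26 when 1 library was left out, with 16 without EtOH DMSO replicate 1, 17 without either EtOH Nec-1 library and 18 without either 4-OHT DMSO library. The replicate numbers did not pair the samples (correlations of deviations 0.00646, -0.012 and -0.0402 over 12702 genes). With the replicate number as a block, 8 of the 10 genes and 19 pathway genes were called between the DMSO groups, and 0 with Nec-1 in EtOH organoids. That count of 0 held in every setting run.

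Some small differences changed sign. *Tgfa* between the DMSO groups was -0.11 with centring, -0.095 with upper quartile scaling and from -0.13 (without EtOH DMSO replicate 1) to 0.21 (without EtOH DMSO replicate 2) with 1 library left out. With Nec-1 in EtOH organoids, *Tgfa* was 0.012 with centring and 0.0012 with upper quartile scaling, and ranged from -0.25 to 0.080 with 1 library left out. *Errfi1* was 0.013 with either scaling and ranged from -0.30 to 0.13, and *Erbb3* ranged from -0.34 to 0.030. These extremes came without EtOH DMSO replicate 1 and replicate 2. The cause was not tested. In the 4-OHT Nec-1 library the mean differences of *Erbb2*, *Dusp6* and *Spry2* from 4-OHT DMSO, all negative as reported, were 0.092, 0.069 and 0.033 with centring. The limits include 2 libraries or 1 per group, unknown fragment counts, the missing 4-OHT control without Cre, the shifts of cell type markers and, for the direction between EtOH and 4-OHT, the labels.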
